A study of Mus musculus with 4 samples.

Results

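The TNF superfamily is a set of ligands, most of them made as membrane proteins that can be cut free, and of cell-surface receptors that bind them. Its genes were taken here from the 25413 rows of the count table by name: every row named Tnfrsf or Tnfsf with a number, plus Tnf, Lta, Ltb, Ltbr, Fas, Fasl, Cd40, Cd27, Cd70, Ngfr, Eda, Edar and Eda2r. This gave 44 members, of which 17 encode ligands and 27 encode receptors. By textbook role, 7 receptors carry a cytoplasmic death domain, 4 are decoy or regulatory receptors that bind ligand without a full signalling domain, and 16 signal through TRAF adaptor proteins.

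RNA came from EpH4, an established mouse mammary epithelial line of wildtype genotype in 2D culture, with 2 untreated control libraries and 2 libraries from cells given PM2.5, the fine fraction of airborne particles. The comparison of these groups asks how particle exposure alters transcript levels. Neither the particle dose nor the length of exposure appears in the labels, both groups share 1 batch value, and nothing says that the 2 libraries of a group came from separate cultures. The p-values therefore measure the spread between these libraries, which may be technical.

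Ligands of the family act as trimers, and binding brings receptor tails together. Death domain receptors such as Fas and the TRAIL receptor recruit FADD and caspase 8, which can start apoptosis, while the TNF receptor Tnfrsf1a uses TRADD and RIPK1 to activate NF-kB. TRAF-binding receptors lead mainly to NF-kB and kinase signalling, and decoy receptors take up ligand without passing on a full signal. In the mammary gland the family is best known through RANKL, encoded by Tnfsf11, and its receptor RANK, encoded by Tnfrsf11a, which drive the growth of the alveolar epithelium.

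Total counts per library ranged from 18548478 to 26206329, and 3 counts, the limit that a count of 0 allows, corresponded to 0.1145 to 0.1617 CPM before scaling (CPM scales counts to library size). Such limits cover counting error only. After a filter on low counts, 12478 genes were tested, of which 19.2% were called higher and 20.4% lower in PM2.5 at an adjusted p below 0.05 (edgeR quasi-likelihood test, Benjamini-Hochberg adjustment). Without TMM scaling of library size, 62.1% of all calls were on the higher side, against 48.6% with it. Apart from Krt14, the label of an epithelial line was hardly reflected in the marker RNA. Of 9 epithelial markers only Krt14 entered the test, and Epcam, Cldn4, Krt5 and Krt18 had 0 counts in all 4 libraries. Cdh1, Cldn3 and Cldn7 had at most 4 counts in a library, and Krt8 at most 20. The 7 fibroblast markers summed to 4950 and 4740 CPM in the controls and 3880 and 4040 CPM in PM2.5. Of these 7, Dcn, Col3a1 and Col1a1 rose, by 3.88-fold for Dcn and 3.12-fold for Col3a1, and Vim, Col1a2 and Pdgfrb fell. These markers moved along with the changes of the members described next, and their part in them was not tested.

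Of the 44 members, 22 entered the test. Among them 7 were called higher, which is 31.8% against the 19.2% of all tested genes, and 3 were called lower, which is 13.6% against 20.4%. The members that rose were Tnfsf13, Fas, Tnfrsf8, Tnfsf10, Tnfrsf23, Tnfrsf1b and Tnfrsf10b, and those that fell were Edar, Tnfrsf21 and Tnfsf9. The median change of the tested members was 0.19 on the log2 scale and their median absolute change was 0.52, beside 0.01 and 0.21 over all tested genes. The filter shapes these counts, since a member enters only if some libraries hold enough reads. Tnfrsf8, with 8 and 16 counts in the controls and 35 and 20 in PM2.5, needed the PM2.5 libraries to enter. Its place among the 7 therefore follows in part from the filter. Without PM2.5 replicate 1, fewer members were called in each direction, as were fewer of all tested genes. In bulk RNA, fewer cells of a type and less RNA per cell cannot be told apart.

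In 9 tested members both PM2.5 libraries were above both controls, in 6 both were below, and in 7 the groups overlapped. Among all tested genes the PM2.5 libraries were both above in 35.9% and both below in 35.1%. The groups did not overlap in any of the 10 called members, which largely follows from the call and is no separate support.

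A second reading took each gene's change relative to the median change of the 50 nearest tested genes on each side along the chromosome. With this positional correction 6 members were called higher and 2 lower, beside 16.1% and 15.5% of all tested genes. The calls on Tnfsf10 and Tnfsf9 ended and the other 8 were kept.

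**Figure D1:**
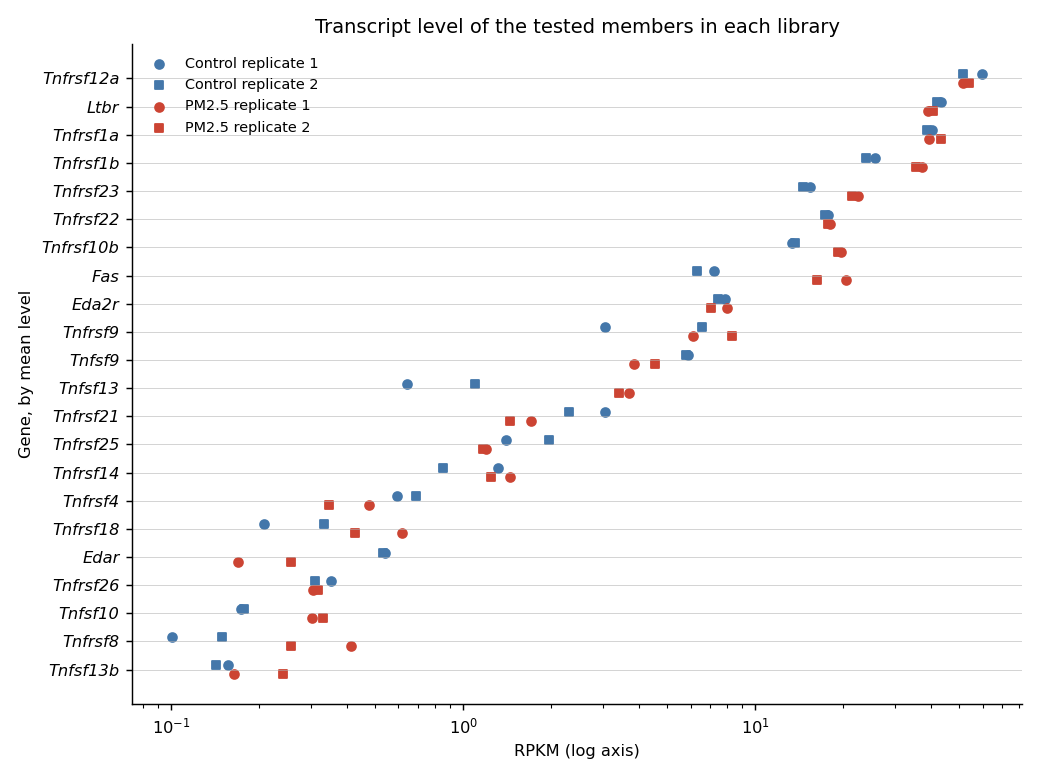
Level of each of the 22 tested members in every library, in RPKM (reads scaled by gene length and library size) on a log axis, with genes ordered by their mean over 4 libraries. Circles are replicate 1 and squares replicate 2, blue for control and red for PM2.5; the receptors from Tnfrsf12a down to Fas have means above 10 RPKM, and all 4 ligands lie lower.

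Levels can be compared between genes in RPKM, which scales counts by gene length. The family's RNA was dominated by receptors. The 8 receptors with mean levels above 10 RPKM held 87.8% to 89.6% of the summed member RPKM in each library, and the 17 ligands together held 2.86% to 3.24%. Tnfrsf12a, the receptor of the cytokine TWEAK, had the highest mean at 54.2 RPKM and lay between 51.4 and 59.7 RPKM. Ltbr, the lymphotoxin beta receptor, and Tnfrsf1a, the main TNF receptor of most cells, followed with means of 41.2 and 40.4 RPKM, and their ranges of 39.1 to 43.3 and 38.6 to 43.1 overlapped almost fully.

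Next in order was Tnfrsf1b, the other TNF receptor, with a mean of 30.5 RPKM. Tnfrsf23 (18.5), Tnfrsf22 (17.7) and Tnfrsf10b (16.5 RPKM) overlapped in their ranges over 4 libraries, and Fas had a mean of 12.6 RPKM with a range of 6.31 to 20.5. Below these, Eda2r, Tnfrsf9 and Tnfsf9 had means of 7.59, 6.03 and 5.01 RPKM, the last being the ligand with the highest level. In all, 15 members had a mean above 1 RPKM.

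Most ligands were at or near 0 counts. Of the 17 ligands only Tnfsf13, Tnfsf10, Tnfsf9 and Tnfsf13b entered the test, and 7 had 0 counts in all 4 libraries. Those 7 were Cd70, Eda, Fasl, Tnfsf11, Tnfsf14, Tnfsf4 and Tnfsf8. Fasl encodes the ligand of Fas, Tnfsf11 encodes RANKL, Eda encodes the ligand of Edar, and Tnfsf4, Tnfsf8 and Cd70 encode costimulatory ligands of immune cells. Tnf itself had 2 and 1 counts in the controls and 1 and 0 in the PM2.5 libraries. Lta and Ltb, the lymphotoxin genes, had at most 2 counts in any library, Tnfsf15 had at most 3, and Tnfsf18 had 4 counts in 1 PM2.5 library and 0 in the other three. A change in these ligands was not detectable at this depth.

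Tnfsf13 encodes APRIL, a secreted ligand known for keeping plasma cells alive. Its level was 1.26 and 2.17 CPM in the controls and 7.17 and 6.59 CPM in the PM2.5 libraries. Both PM2.5 libraries lay far above both controls, and the means were 1.72 ± 0.643 and 6.88 ± 0.415 CPM (SD, n = 2 per group). Tnfsf13 rose 3.86-fold, a log2 change of 1.95 (SE 0.229, edgeR adjusted p = 1.063e-04), the largest change of the tested members. Its call was kept in all 13 alternative settings, with log2 changes of 1.66 to 2.44. The gene lies on chromosome 11 from 69573672 to 69576610, minus strand, in GRCm39 (ENSMUSG00000089669). Another row, Tnfsfm13, overlaps it on the same strand with 18 and 17 counts in the controls and 35 and 32 in PM2.5, so the division of reads between the rows is uncertain. The receptors of APRIL in this family were hardly detected: Tnfrsf17 had 0 counts throughout and Tnfrsf13b had 1 count in 1 PM2.5 library.

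Tnfsf12, the adjoining gene, encodes TWEAK, the ligand of the abundant receptor Tnfrsf12a. It had 5 and 5 counts in the controls and 10 and 14 in the PM2.5 libraries, too few for the test.

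Tnfsf10 encodes TRAIL, the ligand of the mouse death receptor Tnfrsf10b. It stood at 1.10 and 1.12 CPM in the controls and at 1.89 and 2.06 CPM in the PM2.5 libraries, with no overlap. The log2 change was 0.82 (SE 0.282, edgeR adjusted p = 0.0405), from 21 and 29 counts to 39 and 39 counts. This call was fragile: it was kept in 4 of 13 alternatives, over which the adjusted p ran from 0.0314 to 0.224 and the log2 change from 0.59 to 0.88. With the positional correction the change was 0.64 (edgeR adjusted p = 0.108).

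Tnfsf9, the ligand of the costimulatory receptor Tnfrsf9, was the only ligand that fell. Its levels were 9.15 and 8.96 CPM in the controls against 5.87 and 6.90 CPM in the PM2.5 libraries, a clear gap. The log2 change was -0.51 (SE 0.144, edgeR adjusted p = 0.0178). The call ended with the positional correction (-0.33, edgeR adjusted p = 0.101), with DESeq2 (adjusted p = 0.0878) and without PM2.5 replicate 1 (-0.39, edgeR adjusted p = 0.139), and the adjusted p over 13 alternatives ran from 0.00927 to 0.139.

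Tnfsf13b, which encodes BAFF, a survival factor of B cells, was not called. It had 0.947 and 0.853 CPM in the controls and 0.969 and 1.42 CPM in PM2.5, a log2 change of 0.41 with a 95% confidence interval of -0.38 to 1.19. It overlaps Gm44789 on the opposite strand, which held at most 4 counts in a library.

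**Figure D2:**
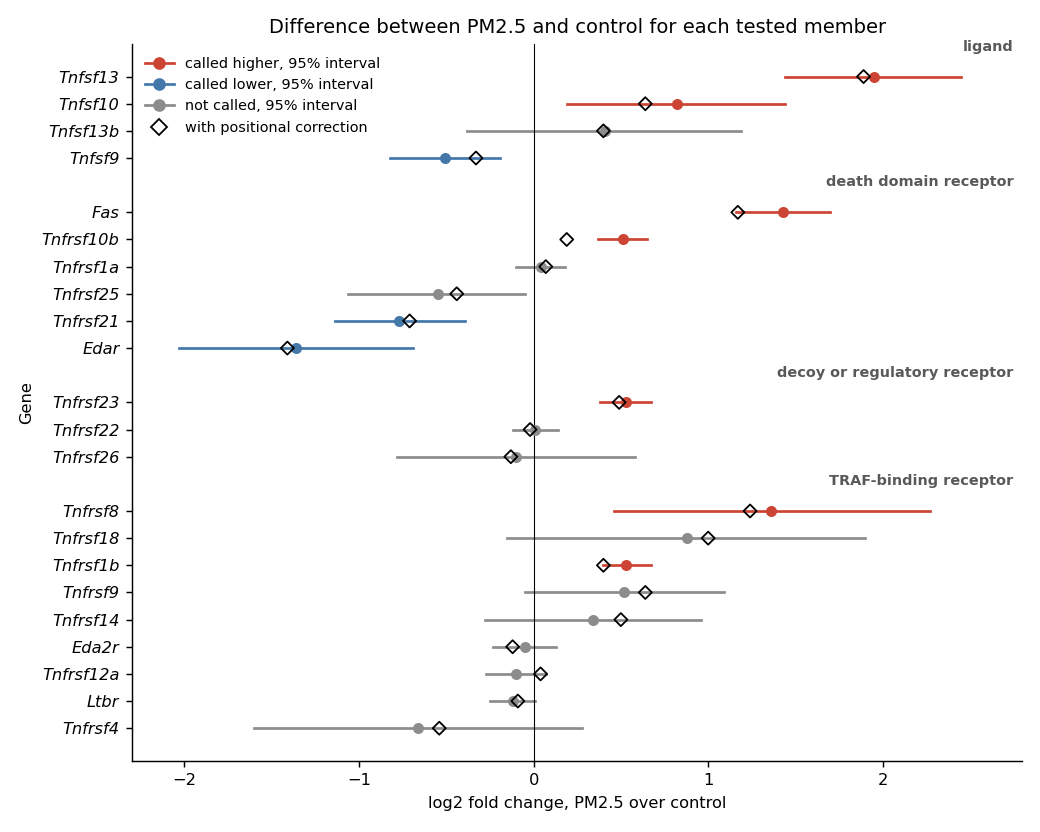
Log2 fold change of PM2.5 over control for each tested member, grouped by role, with 95% confidence intervals from the edgeR fit and open diamonds for the change after positional correction. Tnfsf13, Fas and Tnfrsf8 lie furthest to the right, the last with a wide interval, Edar and Tnfrsf21 lie to the left, and the diamond of Tnfrsf10b moves from 0.51 to 0.19.

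Among the 7 death domain receptors, 6 were tested, 2 rose and 2 fell, 33.3% each way beside 19.2% and 20.4% of all tested genes. Fas, which triggers apoptosis on binding Fas ligand, was measured at 17.0 and 14.8 CPM in the controls and at 47.6 and 37.5 CPM in the PM2.5 libraries. The lower PM2.5 library was still more than the sum of both controls. The means were 15.9 ± 1.57 and 42.5 ± 7.16 CPM (SD, n = 2 per group), a 2.69-fold rise with a log2 change of 1.43 (SE 0.122, edgeR adjusted p = 1.590e-05). It was kept in all 13 alternatives with log2 changes of 1.17 to 1.58. Fas lies on chromosome 19 from 34268066 to 34305172, plus strand (ENSMUSG00000024778). Its share of the summed member RPKM was 2.92% and 2.67% in the controls and 7.4% and 5.83% in PM2.5.

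Tnfrsf10b, the mouse TRAIL receptor, lies on chromosome 14 from 70004921 to 70021860, plus strand (ENSMUSG00000022074). It had 50.9 and 52.2 CPM in the controls and 74.3 and 72.3 CPM in PM2.5. Replicates differed by little beside the gap between the groups. The log2 change was 0.51 (SE 0.064, edgeR adjusted p = 1.635e-04), with means of 51.6 ± 0.918 and 73.3 ± 1.42 CPM (SD, n = 2 per group). The genes around it had a median change of 0.32, and relative to them its change was 0.19 (edgeR adjusted p = 0.0444), still past the threshold. Over 13 alternatives the adjusted p ran from 2.086e-06 to 0.0444.

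Tnfrsf1a, through which soluble TNF mainly signals, had 118 and 113 CPM in the controls and 114 and 124 CPM in PM2.5. The groups overlapped and the log2 change was 0.04 with a 95% confidence interval of -0.10 to 0.18. Tnfrsf25, the receptor of the ligand encoded by Tnfsf15, had 3.21 and 4.50 CPM against 2.71 and 2.63 CPM. Its groups did not overlap, but the change of -0.55 missed the threshold (edgeR adjusted p = 0.0771). It passed without control replicate 1, at -0.75 (edgeR adjusted p = 0.0245), and its adjusted p over the alternatives reached 0.49.

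Tnfrsf21, also called death receptor 6, fell from 3.05 and 2.30 RPKM in the controls to 1.70 and 1.44 RPKM in the PM2.5 libraries. The lower control was above the higher PM2.5 library. In CPM the means were 11.7 ± 2.33 and 6.74 ± 0.816 (SD, n = 2 per group). The log2 change was -0.77 (SE 0.169, edgeR adjusted p = 0.00494), kept in all 13 alternatives between -0.98 and -0.57. The gene spans chromosome 17 from 43327446 to 43400080, plus strand (ENSMUSG00000023915).

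Edar, the ectodysplasin receptor that guides the formation of hair follicles, teeth and glands, fell further but from a low level. It had 2.37 and 2.33 CPM in the controls and 0.727 and 1.11 CPM in PM2.5, from 45 and 60 counts against 15 and 21. These counts were the smaller part of a second deposited count, total gene reads, which was 139 and 179 in the controls and 131 and 120 in PM2.5. Of those reads, 66.5% to 88.5% per library lay outside the counts and entered no test. The log2 change of the counts was -1.36 (SE 0.303, edgeR adjusted p = 0.0052). Without PM2.5 replicate 1 it was -1.08 and no longer past the threshold (edgeR adjusted p = 0.0555), and this was the only one of the 13 alternatives that ended the call. Of the epithelial markers, Krt14, a keratin of basal epithelium, moved the same way, from 53.1 and 51.0 CPM to 20.7 and 18.6 CPM. Krt8, another keratin, went the other way, from 1 and 3 counts to 9 and 20, too few for the test. The part of these keratins in the result was not tested. Eda2r, a TRAF-binding receptor for the other splice form of ectodysplasin, was not called, with 45.5 and 42.9 CPM against 45.4 and 39.8 CPM (log2 change -0.05, interval -0.23 to 0.13). Edaradd, the adaptor of Edar, was below 0.1 CPM in every library, and the ligand gene Eda had 0 counts.

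Ngfr, the neurotrophin receptor and the remaining death domain member, had 0 and 3 counts in the controls and 0 and 1 in PM2.5.

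Of the 4 decoy or regulatory receptors 3 were tested, and 1 of them, Tnfrsf23, rose (33.3% beside 19.2% of all tested genes). Tnfrsf22 and Tnfrsf23 are neighbouring mouse genes that encode decoy receptors for TRAIL. Tnfrsf23 had 62.2 and 58.9 CPM in the controls and 89.5 and 84.7 CPM in PM2.5, a log2 change of 0.53 (SE 0.065, edgeR adjusted p = 1.462e-04). Tnfrsf22 had 89.7 and 87.6 CPM against 90.0 and 88.2 CPM, a change of 0.01 with an interval of -0.12 to 0.14. So within 1 gene pair the PM2.5 libraries were well above the controls for 1 gene and level with them for the other.

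In RPKM, the ratio of Tnfrsf23 to Tnfrsf22 within a library was 0.87 and 0.844 in the controls and 1.25 and 1.21 in PM2.5. Their transcripts share 719 words of 50 bases, 17.34% of those in Tnfrsf22 and 18.01% of those in Tnfrsf23, so the division of reads between them is uncertain. No other pair of members shared a word of this length. Tnfrsf23 lies on chromosome 7 from 143219546 to 143239609, minus strand (ENSMUSG00000037613). Tnfrsf26, a related gene, was low and not called, with 1.37 and 1.20 CPM against 1.16 and 1.21 CPM. Tnfrsf11b, which encodes osteoprotegerin, the soluble decoy of RANKL, had a single count in 1 PM2.5 library.

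**Figure D3:**
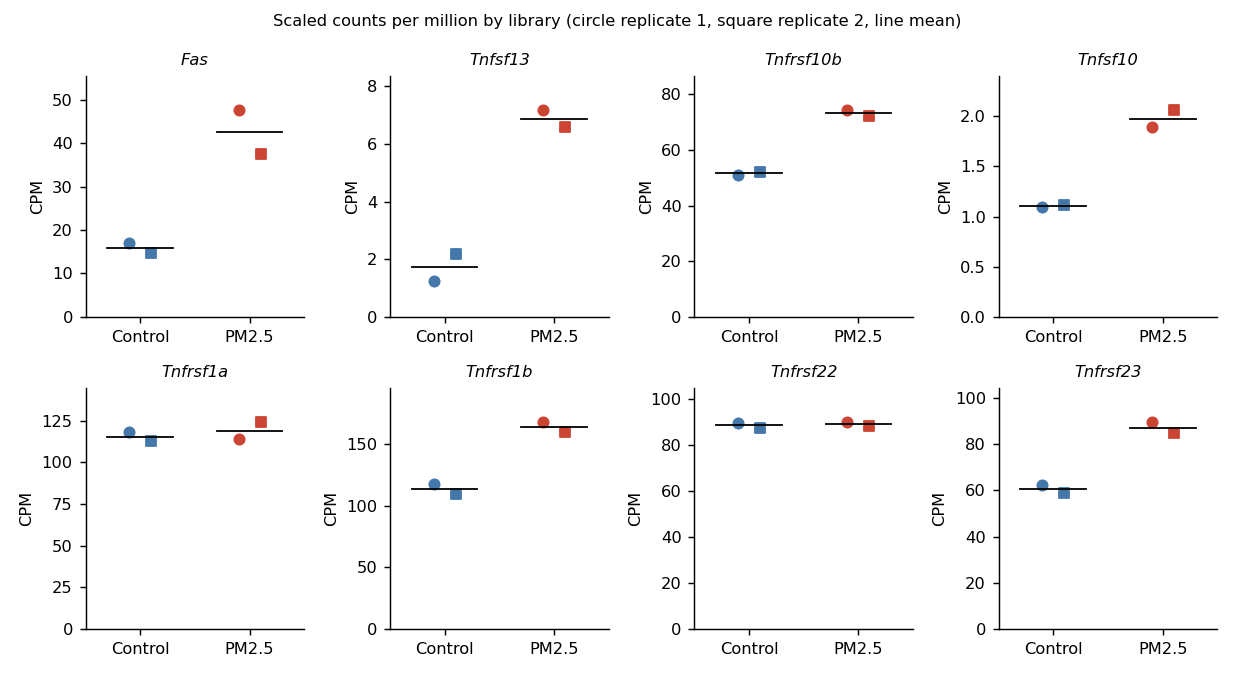
Scaled counts (CPM) in each library for the death receptor and ligand genes Fas, Tnfsf13, Tnfrsf10b and Tnfsf10 (top) and for the pairs Tnfrsf1a with Tnfrsf1b and Tnfrsf22 with Tnfrsf23 (bottom). Circles are replicate 1, squares replicate 2 and lines the group means on axes from 0; in each bottom pair the PM2.5 libraries stand above the controls for the second gene only, as for Tnfrsf23 with 89.5 and 84.7 against 62.2 and 58.9 CPM.

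Among the 16 TRAF-binding receptors, 9 were tested, 2 rose (22.2%, near the 19.2% of all tested genes) and none fell with edgeR, also at an unadjusted p below 0.05. Tnfrsf1b, the TNF receptor that prefers membrane-bound TNF and carries no death domain, had 118 and 110 CPM in the controls and 168 and 160 CPM in PM2.5. The means were 114 ± 5.68 and 164 ± 5.23 CPM (SD, n = 2 per group), a log2 change of 0.53 (SE 0.060, edgeR adjusted p = 8.595e-05). It was kept in all 13 alternatives, between 0.40 and 0.60. The RPKM ratio of Tnfrsf1b to Tnfrsf1a within a library was 0.635 and 0.619 in the controls and 0.942 and 0.826 in PM2.5, so the level of Tnfrsf1b came nearer to that of Tnfrsf1a. Tnfrsf1b spans chromosome 4 from 144940033 to 144973440, minus strand (ENSMUSG00000028599).

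Tnfrsf8, which encodes CD30, known from activated lymphocytes, lies beside it on chromosome 4 from 144993707 to 145041734, minus strand (ENSMUSG00000028602). It had 8 and 16 counts in the controls and 35 and 20 in PM2.5, or 0.421 and 0.621 CPM against 1.70 and 1.05 CPM. The log2 change of 1.36 had a wide interval of 0.46 to 2.27 (edgeR adjusted p = 0.0225). The call ended with DESeq2 (adjusted p = 0.107), without control replicate 1 (1.15, edgeR adjusted p = 0.0853) and without PM2.5 replicate 1 (0.97, edgeR adjusted p = 0.231). Over the 13 alternatives the lowest adjusted p was 0.0169.

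Tnfrsf9, the costimulatory receptor bound by Tnfsf9, varied most within the controls. It had 9.99 and 21.4 CPM in the controls and 19.8 and 26.8 CPM in PM2.5, so the groups overlapped. The change of 0.52 was not called (edgeR adjusted p = 0.133, interval -0.05 to 1.09). Single libraries decided this value: without control replicate 2 it was 1.21 (edgeR adjusted p = 4.481e-05), without control replicate 1 it was 0.11 (edgeR adjusted p = 0.587), and without PM2.5 replicate 1 it was 0.73 (edgeR adjusted p = 0.0275). With the replicate number as a block it was 0.58 and called (edgeR adjusted p = 0.00116).

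The other tested TRAF-binding receptors were not called. Tnfrsf12a had 76.2 and 65.8 CPM in the controls and 64.7 and 67.5 CPM in PM2.5, a change of -0.10 with an interval of -0.27 to 0.07. Without control replicate 2 its change was -0.21 and called (edgeR adjusted p = 0.0367), while over the other alternatives the adjusted p reached 0.987. Ltbr had 110 and 106 CPM against 97.7 and 101 CPM. Its PM2.5 libraries were both lower, yet the change of -0.12 had an interval of -0.25 to 0.01 (edgeR adjusted p = 0.132).

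The remaining 3 tested TRAF-binding receptors belong to the costimulatory receptors of lymphocytes and were low. Tnfrsf14 had 2.26 and 1.47 CPM against 2.47 and 2.11 CPM, a change of 0.34 with an interval of -0.28 to 0.96. Tnfrsf18 had 0.316 and 0.504 CPM against 0.921 and 0.632 CPM, a change of 0.88 with an interval of -0.15 to 1.90. Tnfrsf4 had 0.736 and 0.853 CPM against 0.582 and 0.422 CPM, a change of -0.66 with an interval of -1.60 to 0.28. The groups overlapped for Tnfrsf14 alone, and the wide intervals of all 3 leave room for changes in either direction.

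Outside the test were Tnfrsf11a (RANK), Tnfrsf17 and Tnfrsf19 with 0 counts in every library. Cd40 had 0 and 1 counts in the controls and 1 and 1 in PM2.5. Cd27 had 3 and 6 counts against 5 and 6, and Tnfrsf13c, the BAFF receptor, had 3 and 11 against 11 and 3. With RANKL, RANK and osteoprotegerin all at 0 or 1 count, the RANK system could not be compared at this depth.

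Several members are best known from lymphocytes and macrophages, so markers of these cells were measured too. Ptprc, the pan-leukocyte gene, lay between 0.0485 and 0.158 CPM and Itgam had 0 counts. The 7 leukocyte markers summed to 64.9 and 75.3 CPM in the controls and 68.0 and 75.4 CPM in PM2.5. Most of each sum was Cd14, at 55.9 and 65.3 CPM in the controls and 52.3 and 57.7 CPM in PM2.5. Of the 3 tested, Cd14 and Lyz2 were not called, and Cd68 rose from 3.63 and 4.23 CPM to 9.02 and 10.3 CPM. Of 6 T cell markers, Cd3e, Cd3d, Cd2 and Cd8a had 0 counts, while Cd3g alone entered the test and rose. The 6 summed to 0.105 and 0.349 CPM in the controls and 2.23 and 1.84 CPM in PM2.5. Of 4 B cell markers only Cd79a entered the test and it was not called. The 4 summed to 0.841 and 0.582 CPM in the controls and 1.07 and 1.11 CPM in PM2.5, and Cd79b went from 3 and 0 counts to 10 and 15. The part of Cd68, Cd3g and Cd79b in the results on the members was not tested.

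Promoter sequence is shown for 5 of the members that rose. The 5 were picked after the matches were seen, because their upstream windows hold the same short word. That they share it therefore follows from the choice, and the called members left out are given below. The windows are the 250 bases before the start of each gene, from RefSeq on GRCm38.p6, read along the gene's strand. Capitals mark GCGTG, the core that the aryl hydrocarbon receptor complex binds, on either strand (CACGC when on the other), and in Tnfrsf8 also matches to the NF-kB consensus. The windows lie at chr19:34290409-34290658 (plus) for Fas, chr4:145246871-145247120 (minus) for Tnfrsf1b, chr7:143685876-143686125 (minus) for Tnfrsf23, chr11:69685555-69685804 (minus) for Tnfsf13 and chr4:145315165-145315414 (minus) for Tnfrsf8.
Fas: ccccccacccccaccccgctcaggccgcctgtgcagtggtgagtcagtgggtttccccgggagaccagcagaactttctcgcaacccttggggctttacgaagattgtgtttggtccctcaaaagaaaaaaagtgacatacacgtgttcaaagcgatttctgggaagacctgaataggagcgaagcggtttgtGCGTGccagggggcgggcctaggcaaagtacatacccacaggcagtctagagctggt
Tnfrsf1b: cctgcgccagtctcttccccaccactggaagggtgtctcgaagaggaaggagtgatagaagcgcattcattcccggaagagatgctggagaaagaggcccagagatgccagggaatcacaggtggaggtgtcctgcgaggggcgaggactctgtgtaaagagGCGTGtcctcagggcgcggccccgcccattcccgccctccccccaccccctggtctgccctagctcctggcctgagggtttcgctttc
Tnfrsf23: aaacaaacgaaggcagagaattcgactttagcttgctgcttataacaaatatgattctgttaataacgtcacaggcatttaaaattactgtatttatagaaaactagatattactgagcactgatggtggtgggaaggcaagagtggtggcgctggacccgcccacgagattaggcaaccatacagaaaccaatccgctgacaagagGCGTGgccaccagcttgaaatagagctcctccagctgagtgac
Tnfsf13: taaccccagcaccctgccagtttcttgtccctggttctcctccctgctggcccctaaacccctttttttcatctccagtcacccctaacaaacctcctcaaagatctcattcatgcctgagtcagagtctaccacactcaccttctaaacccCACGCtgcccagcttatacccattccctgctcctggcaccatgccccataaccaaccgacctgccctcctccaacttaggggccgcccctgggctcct
Tnfrsf8: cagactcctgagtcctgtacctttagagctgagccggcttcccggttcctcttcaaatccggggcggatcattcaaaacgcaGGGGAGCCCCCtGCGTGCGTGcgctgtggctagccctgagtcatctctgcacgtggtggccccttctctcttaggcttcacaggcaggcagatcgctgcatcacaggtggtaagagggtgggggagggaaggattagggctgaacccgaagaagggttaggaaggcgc

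RefSeq windows matched 35 of the 44 members, and 18 of those entered the test. GCGTG occurred in 28.2% of all 32851 windows of this length. It was present in 5 of the 6 members called higher that had a window, in 1 of the 2 called lower (Edar) and in 2 of the 10 not called (Tnfrsf14 and Tnfrsf25). Tnfsf10 and Tnfrsf21 had none, and the called members Tnfrsf10b and Tnfsf9 had no RefSeq window. G and C bases made up 56.4% of the windows of Fas and Tnfsf13, 62.8% for Tnfrsf1b, 60.0% for Tnfrsf8 and 44.8% for Tnfrsf23. The median over all windows was 52.4%. The shares with GCGTG were not matched for base content, and its part in them was not tested. The word GCGTG began 57 bases before the RefSeq start of Fas, 88 before Tnfrsf1b, 43 before Tnfrsf23 and 98 before Tnfsf13. Among the called members, the first bases after the RefSeq start of Fas, Tnfrsf23 and Edar matched no GENCODE vM21 transcript of the gene. The place of these 3 windows relative to the transcript start is therefore uncertain. In Tnfrsf8 it occurred in an overlapping pair, and the run of capitals before that pair holds overlapping NF-kB matches on both strands. A match to the NF-kB consensus was found in 7.3% of all windows and in 3 of the 18 tested members, Tnfrsf8, Tnfrsf9 and Tnfrsf25. These matches describe letters in a window, not binding.

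The signalling proteins under these receptors were read from a list of 53 genes of adaptors, kinases, ubiquitin enzymes, caspases and NF-kB factors. Of these, 50 were tested, 12 rose (24% against 19.2% of all tested genes) and 9 fell (18% against 20.4%), and the median change was 0.05. With either PM2.5 replicate left out fewer genes of the list fell, as did fewer of all tested genes.

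Of the genes that rose, Tnfaip3 and Nfkbie, both inhibitors of NF-kB, had the smallest p-values. Tnfaip3, the ubiquitin-editing enzyme A20, which restrains TNF receptor signalling, went from 18.4 and 22.9 CPM to 81.3 and 78.2 CPM, a log2 change of 1.94 (SE 0.095, edgeR adjusted p = 3.252e-07). Nfkbie, a member of the I-kappa-B proteins, rose by 0.72, from 22.1 and 22.4 CPM to 38.4 and 35.0 CPM. Tnip1, a partner of A20, rose by 0.36 and Madd, which binds the death domain of Tnfrsf1a, by 0.51. For these 4 genes both PM2.5 libraries were above both controls.

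Among the 9 that fell were Map3k7 (TAK1, the kinase that activates the NF-kB kinases), Mlkl (the executor of necroptosis), Tradd (the adaptor of Tnfrsf1a) and Daxx (a Fas-binding protein). Their log2 changes were -0.43, -0.39, -0.53 and -0.41. With the positional correction Map3k7 was at 0.04, Mlkl at 0.00 and Tradd at -0.20, none of them called, and Daxx was still called at -0.33. Under that correction 9 of the 50 tested genes of the list were higher and 5 lower, beside 16.1% and 15.5% of all tested genes.

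The proteins that bind receptor tails were mostly not called. Traf1, Traf2, Traf3, Fadd and Ripk1 had changes of 0.08, -0.11, 0.04, 0.11 and -0.08 on the log2 scale, none past the threshold. The interval of Fadd, the adaptor of Fas and Tnfrsf10b, was -0.16 to 0.38. Ripk1 was called lower with the positional correction (-0.19). Casp8, the initiator caspase of death receptors, rose by 0.24 (edgeR adjusted p = 0.0314), from 30.4 and 33.2 CPM to 37.8 and 37.7 CPM. Its call ended in 6 of 13 alternatives: the positional correction, DESeq2, no filter, and without control replicate 1, PM2.5 replicate 1 or PM2.5 replicate 2 (adjusted p of 0.0126 to 0.134 over the 13). Ripk3, the kinase that acts on Mlkl, had 4 counts over all libraries.

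Genes known to be induced by TNF were read from a list of 27, of which 22 were tested. Of these, 14 rose (63.6% against 19.2% of all tested genes) and none fell with edgeR, DESeq2 or limma-voom on all 4 libraries, and 0 fell at an unadjusted edgeR p below 0.05. Without PM2.5 replicate 1, 10 rose and 2 fell. The median change was 0.31. This list shares 8 genes with the signalling list. It was chosen with earlier results of these data known, so its share of risen genes is no independent support. Among those that rose, Icam1 had 4 and 6 counts in the controls and 17 and 15 in PM2.5. It entered the test only through the PM2.5 libraries.

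Mmp9, a gelatinase, rose from 29.7 and 30.5 CPM to 100 and 117 CPM, a log2 change of 1.85 (SE 0.084, edgeR adjusted p = 1.849e-07). Vcam1, an adhesion molecule for leukocytes, rose from 127 and 133 CPM to 283 and 247 CPM (1.03), and Sod2, the mitochondrial superoxide dismutase, from 154 and 177 CPM to 277 and 283 CPM (0.76). The cytokine and chemokine genes Il6, Cxcl1, Ccl2 and Cxcl10 were not called. Csf2, Ccl20 and Cxcl2 had too few counts for the test. Csf2 had 0 and 0 counts in the controls and 7 and 7 in PM2.5. Ccl20 had 8 and 3 against 22 and 9, and Cxcl2 1 and 1 against 2 and 2. As given above, Tnf itself had at most 2 counts in a library.

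Shedding enzymes, their inhibitors and binding partners formed a list of 26 genes, 20 of them tested. Of these 7 rose (35% against 19.2% of all tested genes) and 3 fell (15% against 20.4%), with a median change of 0.09. Without PM2.5 replicate 2 fewer genes of the list rose, as did fewer of all tested genes, and without control replicate 2 more of the list fell. With the positional correction 4 of the 20 rose, beside 16.1% of all tested genes. Timp3, the inhibitor of the TNF-releasing protease Adam17, fell from 153 and 149 CPM to 22 and 22.9 CPM, a log2 change of -2.75 (SE 0.067, edgeR adjusted p = 2.446e-09). Adam17 itself rose by 0.24 (edgeR adjusted p = 0.0264), from 126 and 144 CPM to 152 and 166 CPM. Its call ended in 4 of 13 alternatives: the positional correction, no filter, and without control replicate 1 or PM2.5 replicate 2 (adjusted p of 0.00146 to 0.196 over the 13). Adam10, a related sheddase, rose by 0.28, and Furin, which processes APRIL, by 0.29. The call on Furin ended without PM2.5 replicate 2 (0.23, edgeR adjusted p = 0.0528, the highest of its 13 alternatives, the lowest being 5.903e-04).

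Grn, which encodes progranulin, a secreted protein reported to bind TNF receptors, rose by 0.37. Sort1, a progranulin receptor that also pairs with Ngfr, rose by 0.95 from a low level of 1.53 and 1.63 CPM to 2.81 and 3.32 CPM. The call on Sort1 ended with DESeq2 (adjusted p = 0.0688) and without PM2.5 replicate 2 (0.82, edgeR adjusted p = 0.0844), with adjusted p of 0.00533 to 0.0844 over the 13 alternatives. Timp1, another protease inhibitor, fell by 0.47, and Rtn4r, the Nogo receptor that pairs with Ngfr, fell by 1.60, from 1.47 and 1.59 CPM to 0.582 and 0.422 CPM. The call on Rtn4r ended without PM2.5 replicate 2 (-1.40, edgeR adjusted p = 0.0571, against 0.00407 at the lowest of its alternatives).

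**Figure D4:**
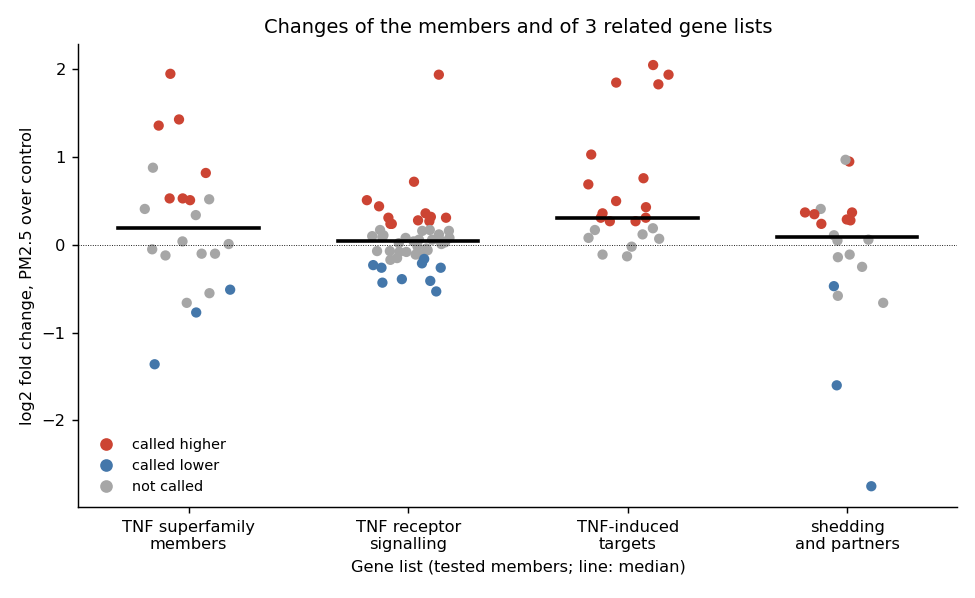
Log2 fold change of every tested gene in 4 groups: the TNF superfamily members, the receptor signalling genes, the TNF-induced genes, and the shedding and partner genes, with a line at each median. Red points were called higher, blue lower and grey neither; the medians are 0.19, 0.05, 0.31 and 0.09, the TNF-induced genes hold no blue point, and the lowest point, at -2.75, is Timp3.

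Set against their ligands and receptors within the family, the called members fell into few complete pairs. For TRAIL, the ligand Tnfsf10 (a call kept in 4 of 13 alternatives), the death receptor Tnfrsf10b and the decoy Tnfrsf23 were higher, while the decoy Tnfrsf22 was not called, with a log2 change of 0.01. The RPKM ratio of Tnfrsf10b to Tnfrsf23 was 0.864 and 0.938 in the controls and 0.876 and 0.897 in PM2.5, with overlapping groups. The ratio of Tnfrsf10b to Tnfrsf22 was 0.751 and 0.792 in the controls and 1.09 and 1.08 in PM2.5, with no overlap. For the pair of Tnfsf9 and Tnfrsf9, the RPKM ratio of ligand to receptor was 1.93 and 0.88 in the controls and 0.625 and 0.543 in PM2.5. These groups did not overlap, but the controls differed widely. For Fas and Edar, the ligand genes had 0 counts in all 4 libraries.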

How the data were processed

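RNA-seq libraries of EpH4 cells, 2 control and 2 PM2.5, were compared by the groups in the labels. The authors deposited raw counts per gene and, from them, RPKM values, per the file headers. The headers do not define a second deposited count, total gene reads. Positions are on GRCm39, per the submitters' processing notes. The aligner, the counting program, the annotation release and use of strand were not given in the sources used here. RNA came as polyA libraries from a stranded kit, per the labels.

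Counts of all 4 libraries were fitted in R 4.3.3 with edgeR 4.0.16 (filterByExpr, TMM, quasi-likelihood F test, no block, 2 residual degrees of freedom), with Benjamini-Hochberg adjustment over 12478 genes and a threshold of 0.05. CPM are TMM-scaled. The SE is the log2 change divided by the square root of F, and intervals are 95%. Code was tested on simulated data. Members, gene lists and tests were chosen with earlier results of these data known. Every tested member is named, and of each other list up to 4 genes called each way with the smallest p, plus Adam17, Adam10, Timp3, Traf1, Traf2, Traf3, Tradd, Fadd, Ripk1 and Casp8. Icam1 is named for the way it entered the test.

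The alternatives were median-ratio size factors, library size only, DESeq2 1.42.0, limma-voom (limma 3.58.1), limma-trend on log2(RPKM + 0.1), no filter, a stricter filter (1 CPM in 2 libraries), the replicate number as a block, the positional correction over 50 tested genes each side, and leaving out each library. Shared words come from GENCODE vM21 transcripts. With 1 library left out, the lone library of a group was assumed to vary like the other group.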

Additional observations from a re-analysis of the deposited data

Results flagged for a closer look

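The deposited total gene reads exceed the counts, and the difference, which the file headers do not define, entered none of the comparisons. Scaled to library size, this remainder was higher in both PM2.5 libraries than in both controls for 12 of the 22 tested members, beside 46.5% of all tested genes. The 5 given first had at least 20 such reads in the controls together and a ratio above 1.5. These minimums were applied to the members only, so no share of all genes stands beside the 5. For Fas the remainder was 133 and 237 reads in the controls and 551 and 400 in PM2.5, a scaled ratio of 3.03. Tnfrsf1b had 239 and 290 against 488 and 375 reads (1.87). Tnfrsf8 had 50 and 94 against 214 and 139 reads (2.9), more reads than were counted for the gene in each library. For Tnfrsf26, whose counts were not called different, the remainder was 6 and 16 against 24 and 31 reads (3.07). For Tnfsf13 it was 9 and 18 against 17 and 30 reads (2.11). As a share of the gene's own total gene reads, the remainder overlapped between the groups for Fas and Tnfrsf8. That share was higher in PM2.5 for Tnfrsf1b and Tnfrsf26 and lower for Tnfsf13. The other 7 were Tnfsf10, Tnfrsf9, Tnfrsf1a, Tnfrsf10b, Tnfrsf23, Eda2r and Edar, with ratios of 2.0, 1.46, 1.46, 1.37, 1.21, 1.2 and 1.17. Tnfsf10 had 4 and 8 against 10 and 10 reads. The counts of Edar fell, while its remainder, 94 and 119 against 116 and 99 reads, exceeded its counts in each library.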

How the results depend on the processing

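Of the 10 called members, 6 kept their direction and call in all 13 alternatives: Tnfrsf1b, Fas, Tnfrsf10b, Tnfrsf21, Tnfrsf23 and Tnfsf13. Leaving out 1 library at a time gave 1 to 4 members lower (3 with all libraries), 4 to 8 signalling genes lower (9), 2 to 7 shedding and partner genes higher (7) and 2 to 5 lower (3), and 0 to 2 TNF-induced genes lower (0). Signalling genes lower numbered 5 with library size only, 5 with DESeq2 and 5 with the positional correction, and shedding and partner genes higher numbered 4 with that correction. In these cases the cause was not tested. Positional changes had the other sign or none for Map3k7 (0.04) and Mlkl (0.00).

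Over all genes, 2399 were higher and 2540 lower. DESeq2 called 1581 and 1928, and leaving out PM2.5 replicate 2 gave 1492 and 1619.

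The labels number the replicates without saying that numbers pair samples. Same-numbered libraries deviated together with a correlation of 0.124 over 2 pairs. With the replicate block, 2819 genes were higher and 2973 lower, 8 members were higher and 3 lower, and Tnfrsf9 was the only member whose call changed. Of the 44 members, 22 had too few counts for the test.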
